A study of Homo sapiens with 7 samples.

Results

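A group of 8 genes that encode proteins of the red cell membrane and the skeleton beneath it was followed through 7 K562 lines: GYPB, GYPC, RHAG, SLC4A1, ANK1, EPB42, SPTB and EPB41. They were found by gene symbol and NCBI gene ID, and all 8 listed genes were present among the 25702 genes of the count table. K562 is an established chronic myeloid leukemia line that carries BCR::ABL1 and is labelled as erythroblast, and dasatinib is a tyrosine kinase inhibitor that blocks this fusion kinase. The K562 DasR intermediates had been grown in dasatinib at rising concentrations. RNA was sequenced once from each of 7 lines. The drug naive line and the line kept in DMSO vehicle were the 2 controls, the 10, 15 and 25 nM DasR lines were the early stage intermediates, and the 50 and 200 nM DasR lines were the late stage intermediates. All 7 are K562 cells, so BCR::ABL1 is shared by the controls, and the DasR lines are steps of 1 dose escalation and not independent selections. The stage groups were set by the study from clustering of these same libraries. Total counts ranged from 20059656 in the 25 nM line to 27844799 in the 15 nM line. Levels are given as CPM, the count of a gene scaled by the total count of its library (CPM sums to 1000000 in each). A difference between groups is therefore measured against the spread between lines at different doses, and no line has a repeat library.

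The membrane of a red cell is held to a meshwork of spectrin by protein complexes of 2 kinds. In the ankyrin complex, band 3 (SLC4A1, the chloride and bicarbonate exchanger), protein 4.2 (EPB42) and the Rh associated glycoprotein (RHAG, a gas or ammonium channel that the Rh antigen proteins need to reach the membrane) are tied to beta spectrin (SPTB) through ankyrin 1 (ANK1). In the junctional complex, protein 4.1 (EPB41) joins the ends of spectrin tetramers to actin and to glycophorin C (GYPC). Glycophorin B (GYPB) is a sialoglycoprotein that carries blood group antigens. In normal erythropoiesis several of these genes are switched on by GATA1, TAL1 and KLF1 as precursors mature, and inherited loss of SPTB, ANK1, SLC4A1 or EPB42 causes spherocytosis.

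The sequence upstream of the genes is shown because erythroid factors are known to bind there. As described below, every early stage line was above both controls in 7 of the 8 genes, as in 35.9% of all genes tested. RefSeq promoter windows were given for 6 of the 8 genes (RHAG, GYPB, GYPC, EPB42, SPTB and EPB41), and the 250 bases before the annotated start were searched on both strands for the GATA motif (GATAA with an A or a T directly before it, with GATAG also accepted in its place) and for CACCC, the core of the KLF1 motif. Neither motif contains the other. All 6 windows held a GATA match and 5 of the 6 held both motifs. Among 27305 promoter windows of the same length, 22.9% held a GATA match, 53.7% held CACCC and 9.68% held both. The windows of GYPB (hg19 chr4:144940534-144940783, reverse strand), RHAG (hg19 chr6:49604553-49604802, reverse strand), EPB42 (hg19 chr15:43513217-43513466, reverse strand) and SPTB (hg19 chr14:65346626-65346875, reverse strand) read as follows from 5′ to 3′ on the strand of the gene, with the matches to either motif in capitals. The RefSeq sequences are of GRCh38.p14, and each was placed in hg19 by its single exact match.
GYPB: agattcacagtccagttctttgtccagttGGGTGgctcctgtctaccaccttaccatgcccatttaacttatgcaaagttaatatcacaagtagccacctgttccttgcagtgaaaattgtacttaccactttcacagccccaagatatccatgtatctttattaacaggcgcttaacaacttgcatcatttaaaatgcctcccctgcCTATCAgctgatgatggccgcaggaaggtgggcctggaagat
RHAG: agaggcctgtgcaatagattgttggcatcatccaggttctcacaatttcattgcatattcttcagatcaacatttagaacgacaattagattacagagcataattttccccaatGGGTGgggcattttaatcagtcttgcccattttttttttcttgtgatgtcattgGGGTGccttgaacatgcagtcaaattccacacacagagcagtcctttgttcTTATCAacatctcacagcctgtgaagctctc
EPB42: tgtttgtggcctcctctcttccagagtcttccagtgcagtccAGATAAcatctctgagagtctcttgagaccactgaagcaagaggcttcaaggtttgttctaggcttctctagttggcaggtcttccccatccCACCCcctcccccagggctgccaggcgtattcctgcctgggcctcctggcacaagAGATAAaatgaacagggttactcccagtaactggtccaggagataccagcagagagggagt
SPTB: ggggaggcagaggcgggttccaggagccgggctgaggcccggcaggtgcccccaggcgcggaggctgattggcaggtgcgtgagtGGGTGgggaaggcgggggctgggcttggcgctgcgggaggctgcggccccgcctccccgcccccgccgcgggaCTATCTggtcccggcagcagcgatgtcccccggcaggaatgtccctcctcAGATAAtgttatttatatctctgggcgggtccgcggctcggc
The GATA match nearest to the start began 42 bases before it in GYPB, 31 bases in RHAG, 61 bases in EPB42 and 42 bases in SPTB. A match is only the presence of these letters.

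The label of the lines was checked against marker genes of erythroid cells. The 16 erythroid markers, which include GYPB and RHAG, summed to 4663 CPM in the drug naive line and 4262 CPM in the DMSO line. The same sum was 13153, 14698 and 11543 CPM at 10, 15 and 25 nM, 7574 CPM at 50 nM and 5448 CPM at 200 nM. The markers were above 3 counts in every line, apart from HBB in the drug naive line, which shows that they were detected and does not by itself set the lines apart from other lineages. The most abundant marker was HBG2, a fetal globin gene, in 5 lines and HBZ, an embryonic globin gene, at 15 and 25 nM. In a bulk library fewer cells that express a gene and less RNA of it per cell cannot be told apart. Of the markers of other blood lineages, MPO, ELANE, PF4, FLI1, MS4A1 and IL7R had at most 3 counts in any of the lines, whereas LYZ, ITGA2B and PTPRC reached 101, 99.2 and 333 CPM.

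Per kilobase of the deposited gene length, RHAG had the highest mean level of the 7 genes with a length, at 255 ± 28.5 CPM per kb (SD over the 7 lines). GYPC followed at 147 ± 16.7, GYPB at 120 ± 83.9 and EPB41 at 102 ± 18.7 CPM per kb. The range of GYPB over the lines overlapped those of the other 3, whereas the ranges of RHAG, GYPC and EPB41 did not overlap each other. ANK1 had 48.6 ± 14.9, SPTB 13.3 ± 3.90 and SLC4A1 9.42 ± 9.86 CPM per kb. The range of SLC4A1 overlapped those of SPTB and ANK1, and GYPB at its lowest reached into that of ANK1. No length was used for EPB42, which did not reach 10 CPM in 2 libraries. GYPB was low per kilobase in the 200 nM line, at 28.4, and reached 231 in the 15 nM line, so that its place in the order depended on the line.

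**Figure D1:**
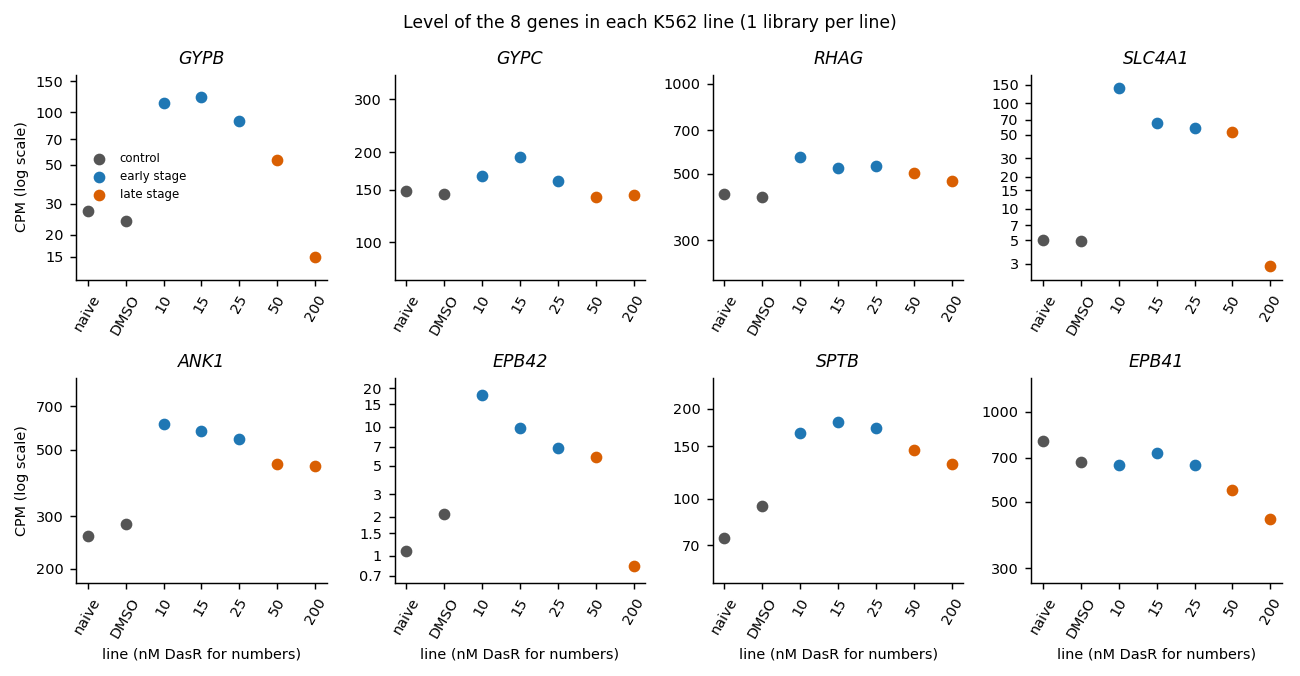
Level of each of the 8 genes (y axis, CPM on a log scale that differs between panels) in each K562 line (x axis), with 1 point per library and color for the group. SLC4A1, EPB42 and GYPB, which did not pass an FDR of 0.005, had their highest points in the early stage lines and their lowest at 200 nM, while ANK1, SPTB and RHAG stayed above both controls in all 5 DasR lines.

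To find out whether red cell membrane genes differed between early stage intermediates and control lines, the 10452 genes that reached 10 CPM in 2 or more libraries were put through the quasi-likelihood test of edgeR, and p-values were adjusted over all of them (FDR). Of the 8 genes, 7 passed this limit, and ANK1 and SPTB rose at the study's FDR of 0.005, whereas none fell. Across all genes tested, 7.92% rose at this threshold. At an FDR of 0.05 the genes that rose were ANK1, SPTB, RHAG, GYPB and SLC4A1, which is 5 of 7, against 22.6% of all genes. This count was 2 (ANK1 and SPTB) without the drug naive line and also without the DMSO line, and 4 without the 10 or the 25 nM line, where RHAG no longer passed. SLC4A1 was above 10 CPM only in the early stage lines and at 50 nM, so it was tested because of lines where it was high. The median log2 fold change of the 7 was 1.02, beside 0.003 over all genes tested. In 7 of the 8 genes, all but EPB41, every early stage line lay above both controls, an order found in 35.9% of all genes tested. The count at 0.005 fell to 0 without the drug naive line, and it rose to 4 without the 50 nM line and to 4 without the 200 nM line.

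Band 3 had the largest fitted change of the 8 genes. SLC4A1 (NCBI gene 6521, chr17:42325758-42345509 in hg19) was barely present in the controls, with 107 counts (5.09 CPM) in the drug naive and 119 counts (4.95 CPM) in the DMSO line. It had 3852, 1796 and 1155 counts at 10, 15 and 25 nM, which are 139, 64.5 and 57.6 CPM. At 50 nM 1108 counts (53.2 CPM) remained, and at 200 nM there were 62 counts (2.87 CPM). The 10 nM line was highest, with 2.41 times the CPM of the 25 nM line, and the 200 nM line was below both controls, so the late stage lines lay on either side of them. The early stage lines averaged 86.9 ± 44.9 CPM and the controls 5.02 ± 0.101 CPM (SD over 3 and 2 lines), which the fit gave as a log2 fold change of 4.10 ± 1.12 (SE, FDR 0.0212) that did not pass 0.005. The FDR was 0.00116 without the 50 nM line and 0.00115 without the 200 nM line, since these lines enter the estimate of the spread, but it was 0.119 without the drug naive line, 0.114 without the DMSO line and 0.0649 with limma voom.

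Protein 4.2, which binds band 3 and ankyrin, was also highest at 10 nM and lowest at 200 nM, at a lower level than SLC4A1. EPB42 (NCBI gene 2038, chr15:43489425-43513216 in hg19) had 23 and 51 counts in the drug naive and DMSO lines, or 1.10 and 2.12 CPM. Its counts were 496, 274 and 138 at 10, 15 and 25 nM, or 17.8, 9.84 and 6.88 CPM. At 50 and 200 nM there were 122 and 18 counts, or 5.86 and 0.834 CPM. All 3 early stage lines were above both controls, and the 200 nM line was below both. When 14899 genes with at least 1 CPM in 2 libraries were tested, the log2 fold change of the early stage lines was 2.83 ± 0.82 (SE, FDR 0.0280), and the FDR was 0.166 without the drug naive line, 0.0918 without the DMSO line and 0.0602 without the 10 nM line. In that larger set 6.32% of genes rose at 0.005 and 20.0% rose at 0.05. Of the windows of 75 bases in the annotated EPB42 transcripts, 12.1% also occur in another annotated gene. Part of the EPB42 reads may therefore not be assignable with certainty, but whether that gene overlaps EPB42 in the genome was not checked.

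Ankyrin 1, the adaptor between band 3 and spectrin, rose in both stages. ANK1 (NCBI gene 286, chr8:41510739-41754259 in hg19) was at 257 CPM in the drug naive line and 283 CPM in the DMSO line. It was at 608, 576 and 545 CPM at 10, 15 and 25 nM, and at 449 and 440 CPM at 50 and 200 nM. No group overlapped another, and the early stage lines were highest. The log2 fold change was 1.08 ± 0.09 (SE, FDR 0.000262) in the early stage lines and 0.70 ± 0.09 (SE, FDR 0.00253) at the late stage, both against the controls. Without the drug naive line the early stage FDR was 0.00527. The late stage FDR was 0.00426 without the 10 nM line, 0.0238 without the drug naive line, 0.0137 without the DMSO line, 0.00541 without the 15 nM line, 0.00759 without the 25 nM line, 0.00948 without the 50 nM line and 0.00805 without the 200 nM line.

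Beta spectrin rose in the early stage lines. SPTB (NCBI gene 6710, chr14:65213001-65346625 in hg19) was at 73.9 and 95.1 CPM in the drug naive and DMSO lines, at 166, 181 and 172 CPM at 10, 15 and 25 nM, and at 146 and 131 CPM at 50 and 200 nM. The 5 DasR lines were all above the controls, which differed from each other by a ratio of 1.29. The log2 fold change was 1.02 ± 0.12 (SE, FDR 0.000839) in the early stage lines, with an FDR of 0.00830 without the drug naive line. At the late stage the change was 0.69 ± 0.12 (SE, FDR 0.00691), which did not pass 0.005.

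The Rh associated glycoprotein varied far less between lines. RHAG (NCBI gene 6005, chr6:49572888-49604552 in hg19) was at 430 and 419 CPM in the drug naive and DMSO lines, at 569, 523 and 530 CPM at 10, 15 and 25 nM, and at 504 and 472 CPM at 50 and 200 nM. Again every DasR line was above both controls. The change was 0.33 ± 0.09 (SE, FDR 0.0180) in the early stage lines and 0.18 ± 0.10 (SE, FDR 0.178) in the late stage lines. Neither passed 0.005.

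Glycophorin B lay between these patterns. GYPB (NCBI gene 2994, chr4:144917257-144940533 in hg19) was at 27.4 and 24.0 CPM in the drug naive and DMSO lines. It was at 113, 122 and 88.7 CPM at 10, 15 and 25 nM, and at 53.7 and 15.0 CPM at 50 and 200 nM. The early stage lines were above all others, and the 200 nM line was lowest. The log2 fold change of the early stage lines was 2.05 ± 0.48 (SE, FDR 0.0122), and the FDR was 0.000366 without the 50 nM line and also 0.000366 without the 200 nM line, but 0.0704 without the drug naive line and 0.0803 without the DMSO line. Of the windows of 75 bases in the annotated GYPB transcripts, 7.32% also occur in another annotated gene, so part of its reads cannot be placed with certainty.

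Neither gene of the junctional complex passed the test for a rise. GYPC (NCBI gene 2995, chr2:127413709-127454243 in hg19) was at 149 and 145 CPM in the drug naive and DMSO lines, at 167, 192 and 160 CPM at 10, 15 and 25 nM, and at 142 and 144 CPM at 50 and 200 nM. Its log2 fold change was 0.22 ± 0.10 (SE, FDR 0.112) in the early stage lines and -0.06 ± 0.11 (SE, FDR 0.673) in the late stage lines, and neither passed 0.05. EPB41 (NCBI gene 2035, chr1:29213603-29446558 in hg19) was at 795 and 676 CPM in the drug naive and DMSO lines, at 664, 725 and 665 CPM at 10, 15 and 25 nM, and at 547 and 437 CPM at 50 and 200 nM. The early stage lines overlapped the controls, with a log2 fold change of -0.12 ± 0.13 (SE, FDR 0.478), and both late stage lines were below every other line. The late stage log2 fold change was -0.60 ± 0.15 (SE, FDR 0.0189), past 0.05 but not 0.005.

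**Figure D2:**
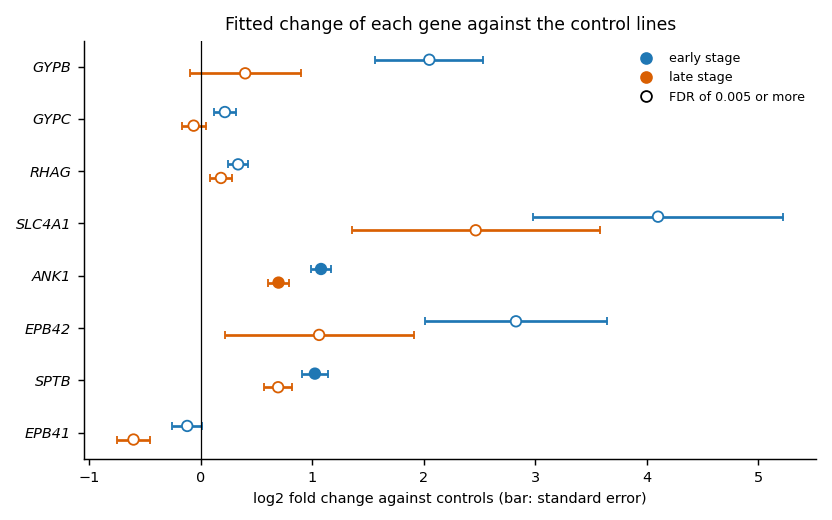
Log2 fold change against the control lines (x axis, with the standard error as a bar) of each gene (y axis) in early and late stage intermediates, where filled points passed an FDR of 0.005. Only ANK1 in both stages and SPTB in the early stage were filled, and SLC4A1, EPB42 and GYPB had the widest bars.

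In the late stage intermediates against controls, ANK1 was the 1 gene of 7 that rose at 0.005, where 3.42% of all genes tested rose. At an FDR of 0.05, ANK1 and SPTB rose, against 16.2% of all genes, and EPB41 fell, against 17.6%. The FDR of EPB41 was 0.100 without the drug naive line and 0.0746 without the 200 nM line, so that it no longer passed 0.05 in these fits. Without the 200 nM line the log2 fold change was 1.05 in GYPB and 3.39 in SLC4A1. Without the 50 nM line it was -0.81 in GYPB and -0.83 in SLC4A1. Each of these fits leaves 1 late stage line, and the direction depended on which line was kept. The median log2 fold change of the 7 genes was 0.40. Both late stage lines were above both controls in 3 of the 8 genes (34.3% of all genes tested) and below both in 2 of the 8 (33.4%). The count at 0.005 was 1 without the 10 nM line and 0 when any of the other 6 lines was left out.

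Between late and early stage intermediates, 0 of the 7 genes passed an FDR of 0.005 by edgeR's quasi-likelihood test, as was the case for all 10452 genes (0.0% called). Before adjustment 5 of the 7 genes had a p under 0.05, as did 33.0% of all genes. At the same FDR limit DESeq2 called 2 of the 7 and 10.9% of all genes, and limma voom called 0 in either. Without the 50 nM line, which leaves 1 late stage line, the log2 difference of GYPB was -2.86, beside -1.65 with all lines. At an FDR of 0.05 ANK1 was lower at the late stage by a log2 difference of -0.38 ± 0.08 (SE, FDR 0.0325), where 6.1% of all genes were lower and 12.7% changed in either direction. Its FDR was 0.0475 without the 50 nM line and above 0.05 when any of the other 6 lines was left out, reaching 0.161 without the 200 nM line. Every one of the 7 had a negative difference, with a median of -0.38 beside -0.005 over all genes. In all 8 genes, EPB42 included, both late stage lines were below all 3 early stage lines, an order found in 26.4% of all genes tested. The comparisons with the controls share those 2 libraries, so their values are given side by side only.

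The 2 late stage lines differed widely from each other in 3 of the 8 genes. SLC4A1 was 18.5 times as high at 50 nM as at 200 nM (95% interval 14.3 to 24.3). The ratio was 7.03 for EPB42 (4.26 to 12.3) and 3.59 for GYPB (3.17 to 4.07). These intervals are exact binomial ones and cover counting error only, since each line has 1 library, and the pair was not tested against each other. For the remaining genes the ratio was 1.25 in EPB41, 1.11 in SPTB, 1.07 in RHAG, 1.02 in ANK1 and 0.99 in GYPC. The 50 nM line was the higher of the pair in 7 of the 8 genes, as in 47.1% of all genes tested. A ratio of at least 2, found in 3 of the 8 genes, was found in 2.44% of all genes tested.

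Set against the controls, the 50 nM line was above both in 6 of the 8 genes (43.1% of all genes tested) and the 200 nM line in 3 of the 8 (43.9%). The genes above both controls at 200 nM were ANK1, SPTB and RHAG. Those above at 50 nM and not at 200 nM were SLC4A1, EPB42 and GYPB, and this order was found in 8.87% of all genes tested. At 200 nM, SLC4A1 was at 0.572 times the control mean, EPB42 at 0.518 times and GYPB at 0.582 times, compared with 10.6, 3.64 and 2.09 times at 50 nM. Accordingly, the late stage log2 fold changes of these genes turned from 2.46 to -0.83 for SLC4A1, from 1.06 to -0.93 for EPB42 and from 0.40 to -0.81 for GYPB when the 50 nM line was left out.

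**Figure D3:**
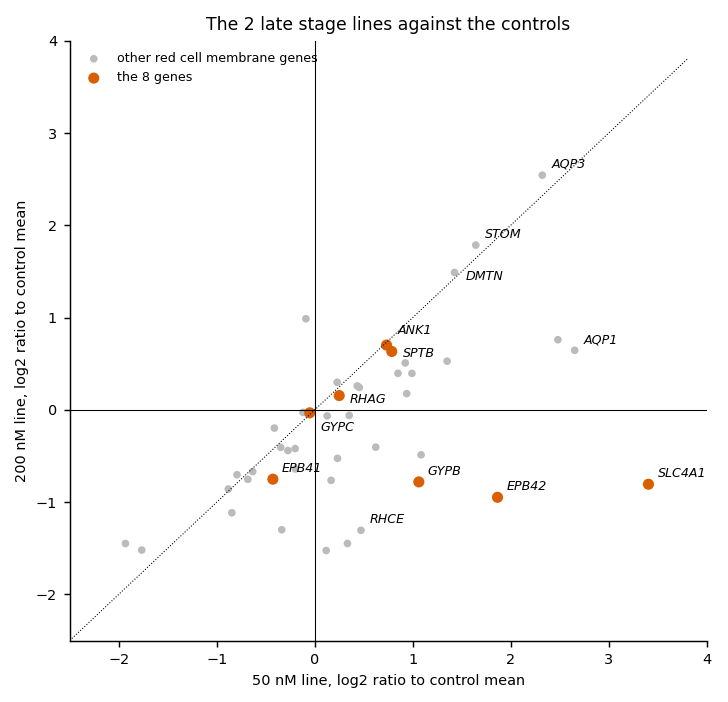
Log2 ratio to the control mean in the 50 nM line (x axis) and in the 200 nM line (y axis) for the 8 genes and 38 other red cell membrane genes, with 1 point per gene and equal values on the dotted line. SLC4A1, EPB42 and GYPB lie to the right of 0 and below it, and ANK1 and SPTB lie on or near the dotted line.

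Other genes of the red cell membrane were taken from a list of 43, of which 40 passed 10 CPM in 2 libraries. The list held skeleton proteins, blood group carriers and transporters, and was chosen with earlier results of these data known. In the early stage lines 8 rose and 6 fell at an FDR of 0.005, where 7.92% and 10.1% of all genes tested did. At 0.05 the numbers were 20 and 11 of 40, against 22.6% and 24.0%, and their total of 31 was 15 without the drug naive and 18 without the DMSO line (39 genes tested in each). The median log2 fold change was 0.70. The total of 14 was 2 without the drug naive line, 3 without the DMSO line, 9, 8 and 6 without the 10, 15 and 25 nM lines, and 23 without either the 50 or the 200 nM line.

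Among blood group carriers that rose in the early stage lines, KEL, the Kell metalloprotease, and XK, the protein linked to it, had log2 fold changes of 1.57 (FDR 0.00268) and 1.64 (FDR 0.00239). KEL was at 81.7 and 90.1 CPM in the drug naive and DMSO lines and at 237, 313 and 225 CPM at 10, 15 and 25 nM. Of the transporters, the glucose carrier SLC2A1 had 1.73 (FDR 0.00124) and the glycerol and water channel AQP3 had 1.85 (FDR 0.000118). AQP3 was at 11.7 and 11.8 CPM in the controls and highest at 200 nM, with 68.6 CPM. Dematin (DMTN), an actin bundling protein of the junction, had 1.79 (FDR 0.00266). The skeleton gene TPM1, a tropomyosin, fell by 2.16 on the log2 scale (FDR 0.000669). CD55, which protects cells from complement, fell by 1.41 (FDR 0.000150), and TMCC2 fell by 2.49 (FDR 0.000261). TMCC2 was above 10 CPM only in the controls (15.9 and 15.4 CPM), so it entered the test through the group where it was high.

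In the late stage lines 2 of the 40 rose and 5 fell at 0.005, where 3.42% and 4.56% of all genes did, and the median log2 fold change was -0.02. AQP3 rose by 2.41 (FDR 0.000219), and STOM, the membrane protein stomatin, rose by 1.69 (FDR 0.00362). STOM was at 46.0 and 47.0 CPM in the controls and at 36.8, 32.0 and 56.8 CPM in the early stage lines, compared with 145 and 160 CPM at 50 and 200 nM. TPM1, TMCC2, CD55, ADD3 (gamma adducin) and FLOT1 (flotillin 1) fell, with log2 fold changes between -1.70 and -0.67. Of these, TMCC2 entered the test through the controls alone. The total of 7 was 1 without the drug naive line, 1 without the DMSO line, 5, 6 and 2 without the 10, 15 and 25 nM lines, 1 without the 50 nM line and 3 without the 200 nM line. Between late and early stage lines 0 of the 40 passed 0.005 by edgeR, and 28 had an unadjusted p under 0.05 (33.0% of all genes). DESeq2 called 19 (10.9% of all genes) and limma voom 0.

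The fall between 50 and 200 nM was also seen in another gene of these complexes, named here after its values were seen. RHCE, which carries the Rh C and E antigens with RHAG, was at 17.5 and 11.6 CPM in the controls, at 51.3, 81.3 and 45.1 CPM in the early stage lines, and at 20.2 and 5.88 CPM at 50 and 200 nM. RHCE and RHD share 13.3% of the windows of 75 bases of RHCE, so their reads are not fully separable. Of the 40 genes, 9 were at least 2 times as high at 50 nM as at 200 nM, as were 2.44% of all genes tested.

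**Figure D4:**
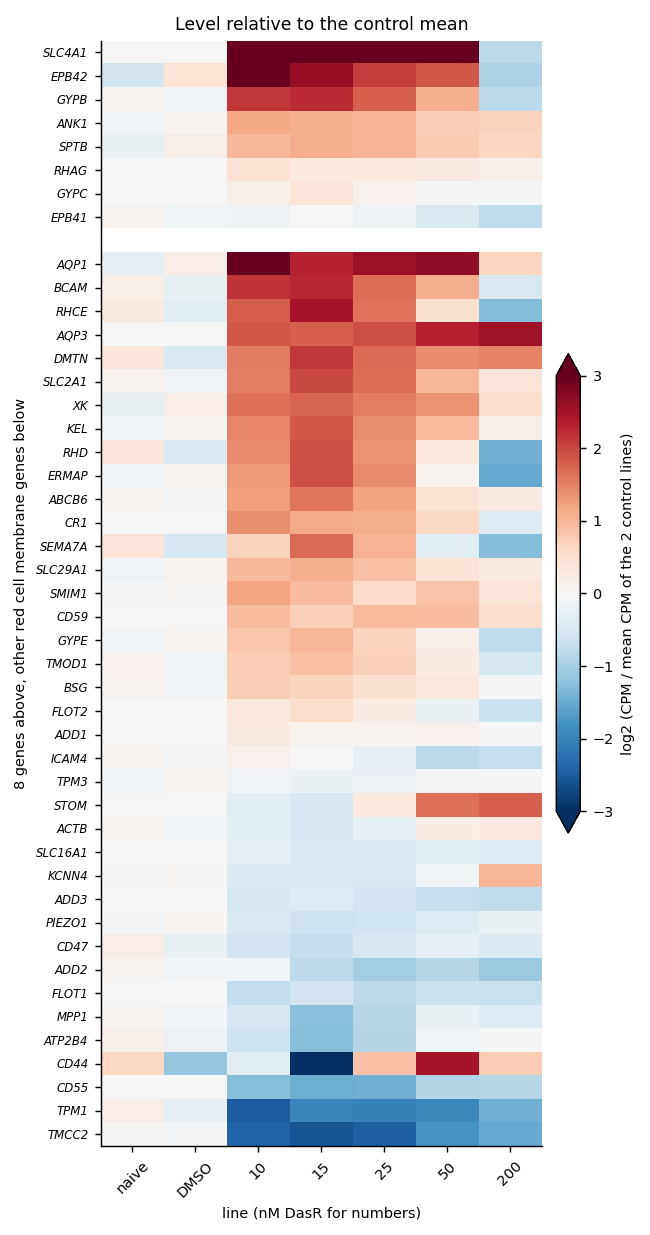
Log2 ratio of CPM to the mean of the 2 control lines (color, limited to 3 in either direction) for the 8 genes (upper rows) and 38 of the 40 other red cell membrane genes tested (lower rows) in each line (columns), sorted by the early stage mean. The 200 nM column is blue for 5 of the 8 genes (SLC4A1, EPB42, GYPB, EPB41 and, faintly, GYPC). STOM is red at 50 and 200 nM, less deeply than AQP3.

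Several of the 8 genes have relatives that serve other cell types, and 12 of 22 such paralogs passed the limit of 10 CPM. In the early stage lines 1 rose and 4 fell at 0.005 (7.92% and 10.1% of all genes), and in the late stage lines 0 rose and 5 fell (3.42% and 4.56%), with median log2 fold changes of -0.66 and -0.68. ANK3, the ankyrin of nerve and epithelial cells, was at 40.7 and 27.6 CPM in the controls, at 2.09, 3.56 and 2.39 CPM in the early stage lines, and at 1.06 and 0.371 CPM at 50 and 200 nM. Its log2 fold change was -3.69 (FDR 0.000605) and -5.60 (FDR 0.000887) in the early and late stage lines. Only the controls were above 10 CPM, so ANK3 entered the test through the group where it was high. Per kilobase, the control mean of ANK1 was 29.1 CPM and that of ANK3 2.17 CPM, and the early stage means were 62.1 and 0.170 CPM. The widely expressed spectrin SPTBN1 fell in the late stage lines by 0.77 (FDR 0.00344). Its mean per kilobase went from 28.7 CPM in controls to 17.1 CPM in late stage lines, and that of SPTB from 8.13 to 13.3 CPM.

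EPB41L2, a relative of protein 4.1, fell by 1.50 in the early stage lines (FDR 0.000132) and by 0.96 in the late stage lines (FDR 0.00141). EPB41L1, expressed mainly in neurons, rose in the early stage lines, by 2.06 (FDR 0.00233). It was at 3.14 and 4.04 CPM in the controls, at 12.7, 19.1 and 13.5 CPM in the early stage lines, and at 4.13 and 2.55 CPM at 50 and 200 nM. Only the early stage lines were above 10 CPM, so EPB41L1 entered the test through the group where it was high. With limma voom this gene was not called at 0.005 in the early stage lines. SLC4A5, a bicarbonate transporter related to band 3, and TGM2, the transglutaminase related to protein 4.2, fell in both stages. Their early stage log2 fold changes were -2.28 (FDR 0.000295) and -1.38 (FDR 0.00176), and the late stage ones -1.59 (FDR 0.00255) and -1.92 (FDR 0.00150). The 5 early stage calls were 1, 2 and 3 without the drug naive, DMSO and 15 nM lines. The 5 late stage calls were 0 without either control line, 3 without the 25 nM line, 1 without the 50 nM line and 1 without the 200 nM line. With DESeq2 the early stage count was 9 (2 higher and 7 lower), and the late stage count was 3 when the 2 groups alone were fitted. The share of all genes called in these fits was not computed, so the counts show only how the calls depend on the setting. Between late and early stage lines 0 of the 12 passed 0.005 by edgeR, 8 had an unadjusted p under 0.05 (33.0% of all genes), DESeq2 called 5 (10.9%) and limma voom 0.

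Erythroid regulators and products were measured beside the membrane genes. KLF1, an activator of many red cell genes, was at 66.2 and 58.9 CPM in the controls, at 112, 98.4 and 88.5 CPM in the early stage lines, and at 82.6 and 81.1 CPM at 50 and 200 nM, with an early stage log2 fold change of 0.66 (FDR 0.00565). TAL1 was at 199 and 215 CPM in the controls, at 302, 326 and 302 CPM in the early stage lines, and at 229 and 156 CPM at 50 and 200 nM (early stage log2 fold change 0.57, FDR 0.0232). GATA1 was at 201 and 217 CPM in the controls and highest at 200 nM, with 295 CPM, and its early stage log2 fold change was -0.18 (FDR 0.283). TFRC, the transferrin receptor, rose in both stages, by 1.13 (FDR 0.000677) and 0.85 (FDR 0.00373). HBG1, whose reads cannot be fully separated from those of HBG2, rose by 1.24 in the early stage lines (FDR 0.00240). ALAS2, the first enzyme of heme synthesis in red cells, was at 58.9 and 40.9 CPM in the controls and at 377, 514 and 300 CPM in the early stage lines. At 50 and 200 nM it was at 124 and 12.2 CPM, an order of lines like that of GYPB, with an early stage log2 fold change of 2.97 (FDR 0.0255).

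Markers of other lineages moved with the lines as well. The 12 megakaryocyte markers summed to 92.1 and 72.1 CPM in the drug naive and DMSO lines, to 91.9, 42.9 and 49.0 CPM at 10, 15 and 25 nM, and to 103 and 139 CPM at 50 and 200 nM. ITGA2B was the most abundant of them in both controls and both late stage lines, VWF at 10 nM and TUBB1 at 15 and 25 nM. The 12 myeloid markers summed to 140 and 128 CPM in the controls, to 155, 46.7 and 74.7 CPM in the early stage lines and to 160 and 166 CPM in the late stage lines, with LYZ most abundant throughout. The 8 lymphoid markers summed to 200 and 214 CPM in the controls, to 20.0, 8.98 and 116 CPM in the early stage lines and to 332 and 367 CPM in the late stage lines, with PTPRC most abundant except at 15 nM. Between 5 and 7 of the megakaryocyte markers, and between 2 and 5 of the myeloid ones, had 3 counts or fewer in a given line. Their part in the values of the membrane genes was not tested.

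For each of the 7 genes tested, the genes with the most similar log2 CPM over the 7 lines were searched among the other 10451 by Pearson correlation, which is given as a description because the lines fall into groups and share controls. The genes closest to GYPB included HIC2 and BCAM, with r of 0.996 and 0.994, and BCAM also encodes a blood group carrier. SLC4A1 was closest to OAT, RSC1A1 and UROS, with r of 0.986, 0.985 and 0.985, and UROS is an enzyme of heme synthesis. ANK1 was closest to CA8, PITX1 and ZNF629 (0.995, 0.994 and 0.993) and SPTB to ADI1, NGDN and KRR1 (0.998, 0.997 and 0.996). RHAG was closest to ADAR, RSPRY1 and ZNF696 (0.989, 0.985 and 0.985), GYPC to EEF1A2, CABLES2 and SPECC1 (0.973, 0.972 and 0.971) and EPB41 to ST3GAL5, DNM1 and RBSN (0.989, 0.988 and 0.987). No gene among the 3 closest was shared by any pair of the 7. Between the 7 genes themselves, r was highest for ANK1 and SPTB, at 0.977, and for GYPB and SLC4A1, at 0.959, and it was lowest for SPTB and EPB41, at -0.25.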

How the data were processed

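Libraries depleted of ribosomal RNA were sequenced once per line as paired reads of 75 bases. Alignment to hg19 by the authors used STAR, and raw counts per NCBI gene ID from featureCounts were deposited. The kit was directional, but the strand setting and tool versions are not given in the sources used here. The deposited tables of the authors' own comparisons hold log2 fold changes, p-values and FDR, which were not used. Gene symbols and lengths in bases were taken from one of them.

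From the counts, CPM was computed on library totals. The study filtered at 10 CPM, and the number of libraries was chosen here. The 10452 genes that reached 10 CPM in 2 or more of the 7 libraries were fitted with edgeR 4.0.16 in R 4.3.3 (TMM scaling, quasi-likelihood test, 1 coefficient per group, all 7 libraries), with Benjamini-Hochberg adjustment over all of them and a call at an FDR under 0.005. The standard error is the log2 fold change divided by the root of F. EPB42 did not pass and was taken from a fit of 14899 genes with at least 1 CPM in 2 libraries, which was decided after its counts were seen. Alternatives were RLE scaling, library size only, other filters, DESeq2 1.42.0, limma voom 3.58.1, fits of the compared groups only, an FDR of 0.05, and leaving out each line. The code was tested on simulated data. P-values measure only the spread between lines of a group, and 3 counts correspond to between 0.108 and 0.150 CPM. Between lines of a group, counts differed beyond sampling noise (chi-square per degree of freedom 15.5 to 48.3).

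The 8 genes and all gene lists were chosen with earlier results of these data known. Named beside the 8 were, per list and comparison with the controls, at most the 8 largest changes past the FDR limit, 6 erythroid genes (KLF1, GATA1, TAL1, TFRC, HBG1 and ALAS2), and the 3 genes most correlated with each member. Shared sequence was measured as windows of 75 bases in annotated transcripts. A few genes of these lists are not reported here by name.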

Additional observations from a re-analysis of the deposited data

Results flagged for a closer look

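The difference between late and early stage intermediates passed an FDR of 0.05 by edgeR in 12 of the 31 genes named by the rule for the 8 genes, the lists and the regulators, a threshold that 12.7% of all genes tested passed. Most of these genes had been named for their change against the controls in the same early or late stage libraries, so the share is not independent of that choice. None passed 0.005. With 1 line left out, the calls at 0.05 among the 7 of the 8 genes that reached 10 CPM in 2 libraries numbered 4 without the 50 nM line and 0 when any of the other 6 lines was left out. EPB42, tested in the larger set of genes, had an FDR of 0.160 with all lines and 0.0216 without the 50 nM line (log2 difference -3.76). Among the 40 other red cell membrane genes 17 were called, and this was 0 without the 200 nM line and 24 without the 50 nM line. With all lines, the call among the 8 membrane genes was ANK1, with a late minus early log2 difference of -0.38 (FDR 0.0325). Of the other red cell membrane genes, SLC2A1 (-1.02, FDR 0.0275) and KEL (-0.98, FDR 0.0410) were lower in the late stage lines. RHCE, named outside that rule, was lower as well (-2.19, FDR 0.0404). AQP3 (0.56, FDR 0.0205), CD55 (0.52, FDR 0.0203), TMCC2 (0.83, FDR 0.0416) and STOM (1.86, FDR 0.0167) were higher. Of the paralogs, EPB41L1 (-2.18, FDR 0.0167) and ANK3 (-1.91, FDR 0.0424) were lower and EPB41L2 was higher (0.55, FDR 0.0196). EPB41L1 had reached 10 CPM only in the early stage lines, and ANK3 and TMCC2 only in the controls. Of the regulators, GATA1 was higher (0.49, FDR 0.0447) and TAL1 lower (-0.69, FDR 0.0354).

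GYPC was flagged by the order of its lines, since all 3 early stage lines were above both controls and both late stage lines were below them. The late stage lines were only just below, at 142 and 144 CPM beside 145 CPM in the DMSO line. By edgeR their log2 fold change against the controls was -0.06 (FDR 0.673). The share of all genes with this order of lines was not computed. The late minus early log2 difference of GYPC was -0.28, which did not pass 0.05 (FDR 0.102).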

How the results depend on the processing

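RLE scaling, library size only, a limit of 1 CPM and limma voom left every count of calls among the 8 genes within 1.5 times. In the early stage comparison the count of 2 became 5 with DESeq2, 4 when the 2 groups alone were fitted, 5 at an FDR of 0.05, and 0 to 4 when 1 line was left out. The late stage count of 1 became 2 with no filter, 3 with DESeq2, 0 with the 2 groups alone, 3 at 0.05, and 0 to 1 with 1 line left out. Between late and early stages the count of 0 became 2 with DESeq2, 1 at 0.05, and 0 to 1 with 1 line left out. For the other red cell membrane genes, the early stage count of 14 became 30 with DESeq2, 23 with the 2 groups alone, 31 at 0.05, and 2 to 23 with 1 line left out. The late stage count of 7 became 14, 2 and 15 under the same settings, and 1 to 6 with 1 line left out. The late against early count of 0 became 2 with no filter, 19 with DESeq2, 17 at 0.05, and 0 to 6 with 1 line left out. Of 333 single values of the 8 genes under alternatives, 303 kept their direction and side of the threshold, 17 passed it in addition, 9 no longer passed and 4 changed sign. With 1 line left out, the late stage log2 fold change ranged from -0.81 (without 50 nM) to 1.05 (without 200 nM) in GYPB, from -0.83 to 3.39 in SLC4A1 and from -0.93 to 1.87 in EPB42 for the same lines, and the early stage value of EPB41 from -0.28 (without DMSO) to 0.018 (without drug naive). Fits that leave 1 line in a group assume that this line varies like the others. Most of the counts above lack the share of all genes called under the same setting, and show only how the calls depend on it. With limma voom the late stage value was 1.22 in SLC4A1 (2.46 with edgeR), 0.50 in EPB42 (1.06) and 0.12 in GYPB (0.40), and late against early SLC4A1 was at -2.77 (-1.63). The calls at 0.05 with 1 line left out were added after seeing the data. No paired analysis was possible because each line has 1 library and the groups hold different lines.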

Other observations

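A pair of surface genes outside the rule for named genes, chosen after their values were seen, varied widely between lines, also within a stage. CD44, an adhesion receptor that carries the Indian blood group, was at 27.0 CPM in the drug naive line and 7.86 CPM in the DMSO line. It was at 13.8, 1.62 and 31.9 CPM at 10, 15 and 25 nM, and at 97.4 and 29.6 CPM at 50 and 200 nM. PTPRC, the leukocyte phosphatase CD45, was at 174 and 195 CPM in the drug naive and DMSO lines. It was at 11.2, 0.898 and 103 CPM at 10, 15 and 25 nM, and at 305 and 333 CPM at 50 and 200 nM. In both genes the 15 nM line was lowest.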
